A study of Homo sapiens with 7 samples.

Results

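The regions described here are the stretches of accessible chromatin on human chromosome 7 that the depositors listed as changed after PHF19 knockdown in Kasumi-1 cells. They number 1045 of the 8815 listed regions (11.9%, exact Clopper-Pearson 95% interval 11.2 to 12.5%), of which 1042 were increased and 3 decreased in the knockdown. Members were chosen by their chromosome and by the authors' own fold and false discovery rate (FDR), so the folds, group means and FDR below are a description of selected regions and were not tested again. All 1045 are accounted for, and no filter on low values was added to the authors' own.

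Kasumi-1 is a cell line from acute myeloid leukaemia that carries the RUNX1-RUNX1T1 fusion, and open chromatin was read out by ATAC-seq, where a transposase cuts and tags accessible DNA. The control group had 4 libraries of cells given a scrambled shRNA, and the knockdown group had 3 libraries of cells given a lentiviral shRNA against PHF19 from a vector that also carries green fluorescent protein and puromycin resistance. Both groups received puromycin at 2 µg/ml from 48 hours after transduction, for 24 hours or longer, and 10000 cells went into a library. The labels do not give the number of shRNA sequences or say that replicate libraries were separate cultures, so the authors' FDR measures only the spread between these libraries.

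PHF19 is a Polycomb-like protein that helps bring Polycomb repressive complex 2 (PRC2) to chromatin, where PRC2 places a repressive methyl mark on histone H3. Chromosome 7 carries the gene for the catalytic subunit of that complex, EZH2, and the HOXA cluster, a classical target of PRC2. Loss of the whole chromosome or of its long arm, 7q, recurs in myeloid leukaemias, and the long arm carries several regulators of blood formation, among them CUX1, KMT2C, SAMD9 and CDK6.

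Every value of a single region below comes from the authors' deposited tables. A level is the authors' mean normalised read count of a group, a fold is the authors' log2 fold of knockdown over control, and neither carries an SD, because the tables hold no value per library. The deposited fold was nearer 0 than the log2 difference of the printed group means in all 1045 regions, with a median ratio of difference to fold of 1.33, and how the authors computed it is not stated in the labels. Coordinates are as deposited and are read as hg19. The distance is to the nearest transcription start in the deposited annotation, and a promoter lies within 3 kb of a start. The depth of each library is unknown here. Of the genes that mark the cell line, RUNX1, RUNX1T1, KIT and CD34 had 5, 3, 2 and 2 increased regions in the lists and CD33 and MPO had none, which says little about identity since the lists hold changed regions only.

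The upstream sequences of 6 genes with increased promoters are shown first, because these promoters recur in the results: DBF4, FAM3C and POT1 had FDRs among the smallest on the chromosome, INSIG1 shared the highest number of regions, and ZNF425 and ZNF212 lie in its longest row of increased promoters. Each is the 250 bases before the RefSeq start, 5′ to 3′ on the gene's strand, in build GRCh38.p14. They were matched to the deposited regions by gene and not by position, since the builds differ, and only genes with 1 start in the RefSeq table were used. Capitals mark matches on either strand to 7 short motifs. The GC box, bound by factors of the SP family, was searched as GGGCGG. The box bound by NF-Y was searched as CCAAT and the TATA box of the basal machinery as TATAAA. For the cAMP response element, bound by CREB, the letters were TGACGTCA, and for the E-box of basic helix-loop-helix factors they were CACGTG. The site of ETS factors was searched as CCGGAAG, and the core of the site of NRF1, a regulator of mitochondrial genes, as GCATGC. Matches may overlap, as GC boxes do in the INSIG1 sequence.
DBF4, chr7:87876243-87876492, plus strand: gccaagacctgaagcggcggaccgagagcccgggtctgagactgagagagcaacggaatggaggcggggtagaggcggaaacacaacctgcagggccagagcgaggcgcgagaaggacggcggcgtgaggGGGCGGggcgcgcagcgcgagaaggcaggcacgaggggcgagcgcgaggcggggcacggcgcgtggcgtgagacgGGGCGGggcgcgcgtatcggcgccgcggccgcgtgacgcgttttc
FAM3C, chr7:121396309-121396558, minus strand: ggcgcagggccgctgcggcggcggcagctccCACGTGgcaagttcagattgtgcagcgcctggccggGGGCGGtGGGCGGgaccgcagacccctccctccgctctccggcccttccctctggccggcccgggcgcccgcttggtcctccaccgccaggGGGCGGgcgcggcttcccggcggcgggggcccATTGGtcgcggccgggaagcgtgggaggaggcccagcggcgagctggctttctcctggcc
POT1, chr7:124929826-124930075, minus strand: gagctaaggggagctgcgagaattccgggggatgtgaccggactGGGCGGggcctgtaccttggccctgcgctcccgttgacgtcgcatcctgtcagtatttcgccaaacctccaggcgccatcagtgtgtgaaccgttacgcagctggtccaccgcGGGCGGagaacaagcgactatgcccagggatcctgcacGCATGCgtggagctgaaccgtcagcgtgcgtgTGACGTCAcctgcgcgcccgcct
INSIG1, chr7:155297628-155297877, plus strand: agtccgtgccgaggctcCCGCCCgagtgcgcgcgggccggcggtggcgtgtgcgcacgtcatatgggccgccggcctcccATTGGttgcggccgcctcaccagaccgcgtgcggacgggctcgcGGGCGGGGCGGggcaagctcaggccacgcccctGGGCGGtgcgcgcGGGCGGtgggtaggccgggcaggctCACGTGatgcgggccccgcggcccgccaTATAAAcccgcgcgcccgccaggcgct
ZNF425, chr7:149126325-149126574, minus strand: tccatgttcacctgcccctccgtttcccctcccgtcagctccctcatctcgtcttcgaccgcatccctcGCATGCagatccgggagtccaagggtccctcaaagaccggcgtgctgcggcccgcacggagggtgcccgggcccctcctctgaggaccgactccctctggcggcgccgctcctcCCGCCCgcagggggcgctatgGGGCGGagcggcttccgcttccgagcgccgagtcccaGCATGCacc
ZNF212, chr7:149239401-149239650, plus strand: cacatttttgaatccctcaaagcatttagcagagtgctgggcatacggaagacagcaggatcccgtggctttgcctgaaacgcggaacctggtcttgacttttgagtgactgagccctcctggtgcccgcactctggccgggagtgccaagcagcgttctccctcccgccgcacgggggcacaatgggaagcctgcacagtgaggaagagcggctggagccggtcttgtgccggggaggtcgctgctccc

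The INSIG1 sequence held 5 GC boxes, 1 CCAAT box, 1 TATA box and 1 E-box, and its GC content was 78.4%. DBF4 held 2 GC boxes, FAM3C 3 with a CCAAT box and an E-box, and POT1 2 with a cAMP response element and an NRF1 core. ZNF425 held 2 GC boxes and 2 NRF1 cores, and none of the 7 motifs was in the ZNF212 window. These are matches of letters and not sites.

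Across the chromosome, 278 protein-coding genes had an increased region over a start, and 176 of them had 1 start in the RefSeq promoter table. The median GC content of their upstream sequences was 65.2% (quartiles 59.2 to 72.1%) with a median of 23 CpG pairs, against 60.8% and 10.5 for 302 chromosome 7 genes with no listed region. A GC box was present in 68.8% of the first set, in 42.7% of the second and in 56.5% of all 11786 promoters of the same length. For the ETS site the shares were 23.3%, 9.93% and 12.5%, for the CCAAT box 38.6%, 31.5% and 35.4%, and for the TATA box 3.98%, 10.6% and 10.2%. The E-box was found in 7.39%, 6.95% and 7.85%, the cAMP response element in 3.98%, 2.32% and 2.56%, and the NRF1 core in 10.8%, 5.63% and 7.23%. On the other chromosomes the 1474 genes with an increased region over the start had a median GC content of 65.6% and 23 CpG pairs, and 72.2% of them held a GC box. The ETS site was found in 23.6% of these 1474, the CCAAT box in 35.2% and the TATA box in 5.77%. The E-box was found in 11.1%, the cAMP response element in 3.73% and the NRF1 core in 10.6%. No test was made on these shares. The set with no listed region can hold both tested promoters without a listed change and promoters that were never tested. The contrast with it is therefore not to be read as a trait of increased promoters alone.

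The increased regions ran the length of chromosome 7 (first region from 149085, last to 158770076). The authors' FDR column implied 52675 tested regions, of which 16.4% were listed as increased, 0.380% as decreased and 16.7% in either direction. How many of the tested regions lay on chromosome 7 is unknown here, so its 1042 and 3 are not set against those shares. The same ranks implied 8925 regions up to the largest listed FDR, while 8815 were listed. No listed increase on any chromosome had a log2 fold below 0.586, so a cut on the fold may have been used as well. The labels do not state one. Chromosome 7 held 12.1% of all increased regions (95% interval 11.4 to 12.8%) and 1.5% of all decreased ones (0.310 to 4.32%). Neighbouring regions are not independent, these intervals cover counting error only, and no test against other chromosomes was made.

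Each of the 16 consecutive intervals of 10 Mb held between 32 and 88 increased regions. The interval from 140 to 150 Mb held the most, 88, which include the EZH2 region and its zinc finger neighbours, and the interval from 90 to 100 Mb followed with 86. The fewest, 32, lay between 60 and 70 Mb. Promoters made up 66.2% of the regions in the first interval and 18.8% in the second, from 10 to 20 Mb, where ETV1, MEOX2, HDAC9, AHR and TWIST1 lie. That second interval had the largest median log2 fold, 1.16, at a median of 8.85 reads over all libraries. In 15 of 16 intervals the median log2 fold was above the 0.96 of increased regions on all other chromosomes, and the exception was the interval from 60 to 70 Mb (0.89).

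**Figure D1:**
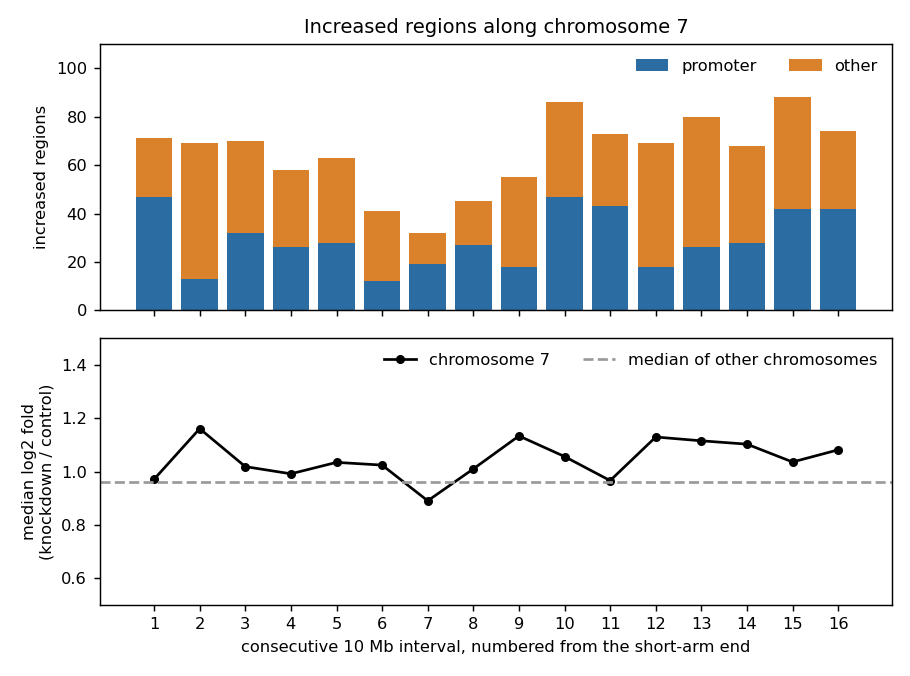
Upper panel: number of increased regions in 16 consecutive 10 Mb intervals of chromosome 7, numbered from the end of the short arm, with promoters in blue and other regions in orange. Lower panel: median log2 fold of knockdown over control in each interval, with the median of all other chromosomes (0.96) dashed; counts run from 32 to 88, and interval 7 is the one below the dashed line (0.89).

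Both arms showed the same picture. The longest stretch without a listed increase, 7.08 Mb from 56174464 to 63250018, holds the centromere. The short arm before it had 372 increased regions, 6.64 per Mb, with a median log2 fold of 1.03 (quartiles 0.91 to 1.20). The long arm after it had 670, or 7.01 per Mb, with a median of 1.05 (0.92 to 1.23). The median gap between neighbouring increased regions was 73.2 kb, and 11 of 1041 gaps exceeded 1000 kb.

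Joining increased regions within 10 kb of each other gave 885 stretches, of which 755 held a single region, 107 held 2 and 23 held 3 or more. The stretch with the most regions, 5 within 20.2 kb, ran across ZYX, which encodes the focal adhesion protein zyxin, into EPHA1-AS1 (143072459 to 143092636, log2 folds 1.07 to 1.30). A stretch of 4 promoter regions covered ZCWPW1, MEPCE and PPP1R35 (0.74 to 1.03). The divergent pair HNRNPA2B1, an RNA-binding protein of splicing and RNA transport, and CBX3, a heterochromatin protein, shared 3 promoter regions within 2.07 kb (1.09 to 1.61). Stretches of 3 also lay at the promoters of KMT2E-AS1 (1.37 to 1.5), LMBR1 (1.14 to 1.26) and INSIG1 (1.07 to 1.73).

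Accessibility at the promoter of DBF4, the regulatory subunit of the kinase that fires replication origins, had the smallest FDR of any listed region (87505473 to 87505873). Its mean was 108 reads after knockdown and 27.4 in the control, a log2 fold of 1.79 (FDR 2.4e-10). The promoter of FAM3C, a secreted cytokine-like protein, followed with 98.7 and 24.8 reads (121036267 to 121036667, log2 fold 1.80, FDR 4.97e-10). Both sequences are printed above, and in both the control mean was near the same level. Next on the chromosome was the promoter of PNPLA8, a mitochondrial and peroxisomal phospholipase, with 159 and 56.8 reads (1.38, FDR 1.44e-09).

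Other promoters with small FDRs included those of regulators of transcription and of telomeres. Promoters of further genes had similar FDRs, among them PHTF2 (8.5e-09) and LANCL2 (2.29e-08). CDK13, a kinase of the RNA polymerase II tail, had 129 and 37.2 reads at its promoter (log2 fold 1.61, FDR 8.28e-09). SP4, a zinc finger factor that binds GC boxes, had 151 and 51.2 reads (1.43, FDR 1.34e-08). ING3, a reader of histone methylation in the NuA4 acetyltransferase complex, had 74.5 and 19.95 reads (1.69, FDR 1.79e-08). POT1, the shelterin protein that caps single-stranded telomere ends, had 119 and 41.1 reads (1.41, FDR 1.79e-08), and its 4 further regions lay 383 to 732 kb upstream. Of the 50 increased regions with the smallest FDR in the whole series 16 were on chromosome 7, and so were 124 of the first 500 (24.8%), beside its 12.1% of all increased regions.

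The 5 regions with the highest overall means were all promoters, and their folds were spread widely. FBXO24, an F-box protein, had 191 reads after knockdown and 123 in the control, a log2 fold of 0.59, which is close to the smallest on the chromosome. EEPD1, a nuclease-domain protein of replication fork repair, had 217 and 100 reads (1.04). PHTF2 (177 and 68.6 reads, 1.27), LINC01003 (161 and 64.6 reads, 1.21) and SND1, a nuclease of the RNA silencing machinery (162 and 63.0 reads, 1.26), completed the group. In each of these 5 the knockdown mean was the higher, which their listing as increased already fixes.

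**Figure D2:**
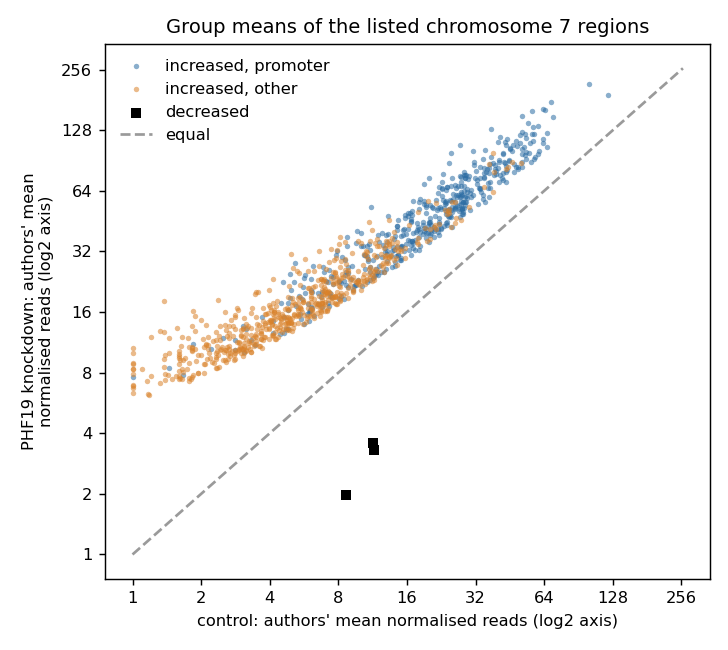
Authors' mean normalised reads of the control (horizontal) and of the PHF19 knockdown (vertical) for the 1045 listed chromosome 7 regions, both on log2 axes, with equal levels dashed. Promoters (blue) sit towards high reads and other regions (orange) towards low reads; the 3 decreased regions (black squares) lie below the dashed line, and 12 increased regions stand at the control floor of 1 read.

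The 10 largest increases at named genes had log2 folds from 1.79 to 2.04, and 6 of them were outside promoters. The largest was an intergenic region 109 kb from LUZP6, a gene nested in the MTPN transcript, where the means were 18.1 reads after knockdown and 1.37 in the control (135771516 to 135771916, 2.04). A region in a CAPZA2 intron, 18.8 kb from the nearest start of that actin-capping protein gene, had 31.1 and 4.98 reads (2.00). At ACTB, which encodes beta-actin, the promoter region with 53.0 and 11.1 reads (5570116 to 5570516) had a fold of 1.88, and a neighbouring one with 101 and 31.3 reads had 1.27. An intron of ABCA13, a membrane transporter, came next (16.2 and 1.83 reads, 1.85). It was followed by an intergenic region 196 kb from the start of MTERF1, a mitochondrial transcription factor (23.4 and 4.14 reads, 1.82). A region assigned to CDCA7L (29.3 and 5.71 reads, 1.81) lies inside an intron of the axonemal dynein gene DNAH11.

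FAM3C, ZNF800 (28.1 and 5.14 reads, 1.80), PLXNA4 and DBF4 completed the 10. The region of PLXNA4, a semaphorin receptor subunit, was intronic and 143 kb from a start (18.4 and 2.37 reads, 1.80). The 5 largest promoter increases were those of ACTB, FAM3C, ZNF800, DBF4 and CASP2, an initiator caspase (24.8 and 4.90 reads, 1.74). As differences of the group means, the folds of LUZP6, ABCA13 and PLXNA4 were 3.72, 3.14 and 2.96 on the log2 scale, and those of FAM3C and DBF4 1.99 and 1.98, so low control means go with the wider gaps. The deposited folds are close to each other, and with no value per library their order cannot be tested.

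The members nearest the authors' threshold were as follows. The largest listed FDR on the chromosome, 0.0499, was at SMKR1, with 14.5 reads after knockdown and 5.95 in the control (log2 fold 0.86). An intronic region assigned to LRRN3 came next by FDR, 0.0499 as well, with 8.01 and 2.05 reads (0.93). The smallest fold, 0.59, was at the promoter of RINT1 (56.3 and 35.1 reads, FDR 0.0477). It lay near the smallest listed increase of the other chromosomes, 0.586. Regions just outside the threshold were not analysed here.

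The decreased regions had low reads in both groups, and 2 of the 3 are described here. The promoter of GBX1, a homeobox gene, had 3.31 reads after knockdown and 11.5 in the control (150865273 to 150865673, log2 fold −1.02, FDR 0.0291). A region 4.76 kb upstream of the same start was increased, with 22.9 and 10.0 reads (0.92). An intron of MAD1L1, a spindle checkpoint protein, had 3.59 and 11.3 reads (−0.92, FDR 0.0483), and MAD1L1 had no increased region.

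Increased regions of chromosome 7 had a median log2 fold of 1.05 (95% interval 1.03 to 1.07, quartiles 0.92 to 1.22), the highest median of the 23 chromosomes. All other chromosomes together had 0.96 (0.83 to 1.1), and the next single ones were chromosomes 4 (1.01), 13 (1.0) and 6 (1.0). Quartile ranges of all of them overlap with that of chromosome 7. A log2 fold of at least 1 was reached by 58.4% of its increased regions and by 41.3% of those elsewhere, and an FDR of at most 0.01 by 55.7% and 44.5%. Folds and FDR were used for the listing, so these are descriptions with no test. The interval of the median treats neighbouring regions as independent and carries no spread between libraries.

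**Figure D3:**
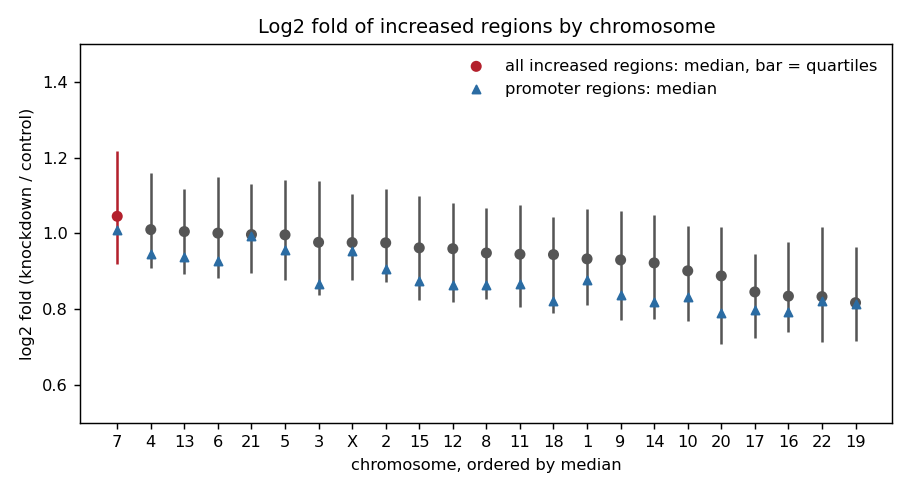
Median log2 fold of knockdown over control of increased regions on each of 23 chromosomes, ordered from high to low, with bars from the lower to the upper quartile and triangles for promoters alone. Chromosome 7 (red) stands first for all regions (1.05) and for promoters (1.01), and its quartile bar overlaps those of all other chromosomes.

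Chromosome 7 also ranked first for promoters alone, where the median was 1.01 on chromosome 7 and 0.88 elsewhere, and for the remaining regions (1.08), while the order of the chromosomes after it differed. Introns had medians of 1.08 and 1.02 and intergenic regions 1.08 and 1.02. Read levels differed in the opposite direction to the fold. The median over all libraries was 15.2 reads on chromosome 7 and 18.8 elsewhere, and 68.9% and 73.7% of regions had at least 10 reads. Increased regions were therefore also compared within quartiles of the overall mean. In the lowest quartile the medians were 1.09 on chromosome 7 and 1.05 elsewhere, in the second 1.06 and 1.01, in the third 1.0 and 0.89, and in the highest 0.98 and 0.82. The chromosome 7 median was the higher in each, and its share of regions went from 14.0% in the lowest to 10.2% in the highest quartile.

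Promoters held 468 of the increased regions (44.9%, 95% interval 41.9 to 48%), against 50.8% (49.7 to 52.0%) on the other chromosomes. Introns held 24.5% (21.9 to 27.2%) against 19.9% (19 to 20.9%), and 54 of the 255 intronic regions were in a first intron (21.2%), against 31.1% elsewhere. Intergenic regions made up 27.4% and 26.7%, exons 2.11% and 1.82%, and untranslated regions 1.06% and 0.700%. A start was covered by 30.6% of regions on chromosome 7 and by 35.2% elsewhere. Regions more than 100 kb from a start were 16.1% and 16.2%. Within depth quartiles the promoter shares lay close together, at 7.62% and 9.94% in the lowest and 92.7% and 93.3% in the highest.

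Of 938 protein-coding genes on chromosome 7, 483 (51.5%) were nearest to an increased region and 352 (37.5%) had one at a promoter. Regions were assigned to 567 named genes in all, of which 339 had 1 region, 113 had 2 and 115 had 3 or more. Protein-coding genes took 906 of the 1045 regions, long noncoding RNA genes 62 and microRNA genes 25. A nearest start is no proof of a target, since 109 of the 277 intronic and exonic regions lay inside a gene other than the one they were assigned to. There were 8 regions with no symbol and 15 whose gene was not matched to RefSeq.

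INSIG1 and ETV1 each had 10 increased regions. INSIG1 encodes the endoplasmic reticulum protein that retains the sterol sensor SCAP and so limits cholesterol synthesis. Its 3 promoter regions had 40.5, 82.4 and 67.5 reads after knockdown and 9.62, 36.0 and 27.7 in the control, with folds of 1.73, 1.07 and 1.13. A further 5 lay 48.1 to 78.5 kb downstream of the start, with folds between 0.96 and 1.68, and 2 lay 90.8 and 92.1 kb upstream (1.18 and 1.14). Every INSIG1 region outside the promoter was intergenic.

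ETV1, an ETS-family transcription factor, had a promoter region with 109 reads after knockdown and 43.7 in the control (log2 fold 1.19), and 9 others between 488 kb downstream and 279 kb upstream. The largest, 79.6 kb upstream, had 20.2 and 3.56 reads (1.73), and the next, 164 kb upstream inside an intron of DGKB, a diacylglycerol kinase, had 20.5 and 3.98 reads (1.62). A pair of the downstream regions stood at the control floor of 1 read, with 8.34 and 6.35 reads in the knockdown.

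HGF, HDAC9, SUGCT and POM121L12 followed with 8 regions each. At HGF, which encodes hepatocyte growth factor, the promoter had 22.5 and 4.56 reads (1.64), a region 6.02 kb upstream 15.3 and 1.88 reads (1.77) and one 76.3 kb upstream 32.8 and 7.44 reads (1.72). The other 5 HGF regions had smaller folds, 0.88 to 1.16. HDAC9, a class II histone deacetylase, had 2 promoter regions (1.24 and 0.97) and 6 within the gene (0.92 to 1.16). SUGCT, a mitochondrial CoA-transferase, had 1 promoter region (66.5 and 26.2 reads, 1.15) and 7 others (0.91 to 1.18), whereas all 8 regions of POM121L12 were intergenic, 74.8 to 528 kb from its start (0.92 to 1.27).

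**Figure D4:**
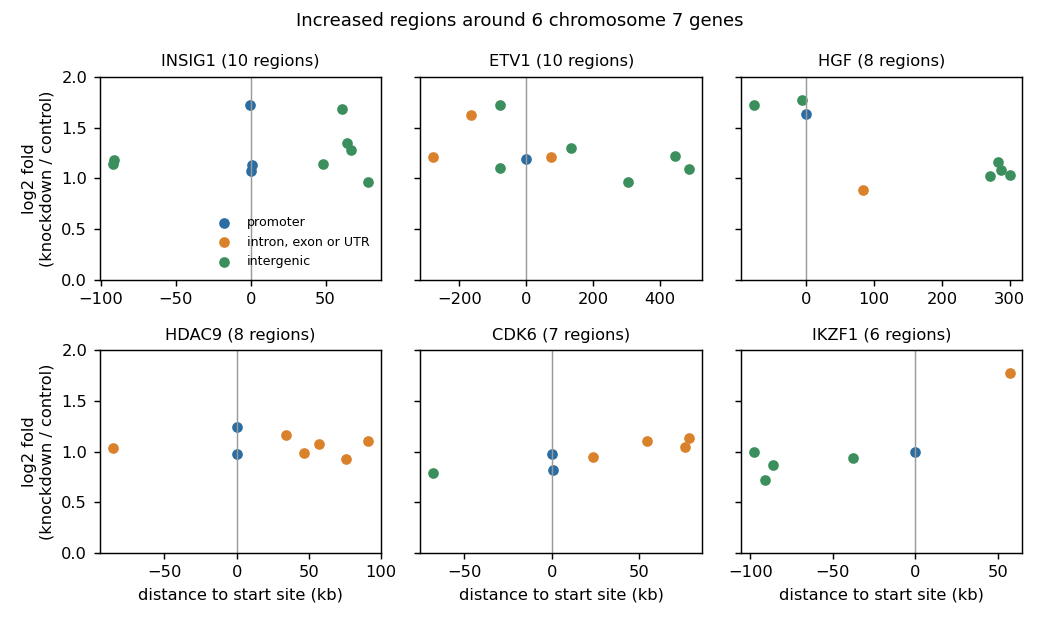
Log2 fold of knockdown over control against the distance in kb to the nearest transcription start (grey line) for the increased regions assigned to INSIG1, ETV1, HGF, HDAC9, CDK6 and IKZF1, by deposited annotation. A gene can have more than 1 start, so the grey line need not be the same start for all regions of a gene. INSIG1 and HGF have their largest folds at or near a start (1.73 and 1.77), and IKZF1 has its largest in an intron, 57.1 kb from the nearest start (1.78).

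In RefSeq gene order, the longest row of neighbouring protein-coding genes that each had an increased promoter held 14 genes, from CUL1 to ZNF862 (148395609 to 149535597). It runs through CUL1, the scaffold of SCF ubiquitin ligases, EZH2, PDIA4, an endoplasmic reticulum disulfide isomerase, and then ZNF786, ZNF425, ZNF398, ZNF282, ZNF212, ZNF783, ZNF777, ZNF746, KRBA1, ZNF467 and ZNF862, most of which belong to a cluster of zinc finger genes. The 17 promoter regions of the row had log2 folds from 0.61 to 1.35 (median 1.03) and median levels of 49.8 reads after knockdown and 19.4 in the control. ZNF398 had the largest (49.8 and 16.5 reads, 1.35), followed by both CUL1 regions (24.2 and 7.41 reads in one, 34.2 and 10.7 in the other, 1.29 each) and ZNF212 (53.2 and 19.4 reads, 1.26), and ZNF862 had the smallest (88.9 and 55.8 reads, 0.61). Promoters of such clustered genes can have similar sequence, so the origin of single reads is uncertain.

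Among all genes of the ZNF, ZKSCAN and ZSCAN names on the chromosome, a group chosen after its values were seen, 24 of 39 had an increased promoter (61.5%), beside 37.5% of all protein-coding genes. Olfactory receptor genes had 2 of 15. The next rows were 8 genes from TMED4 to CCM2 (0.77 to 1.24), which include OGDH, a subunit of the oxoglutarate dehydrogenase complex (140 and 54.5 reads, 1.24), and 7 genes from ABCB4 to SRI (0.86 to 1.79), which include DBF4 and the drug efflux pump ABCB1 (22.5 and 7.21 reads, 1.20). The longest row of genes without an increased region held 23 genes and spanned the centromere, from NUPR2 to ZNF679.

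A list of 20 Polycomb and chromatin regulators of chromosome 7 was drawn broadly and also holds genes of other functions, such as RBM33. Of the 20 genes, 13 were nearest to an increased region (65%), 11 of them at the promoter (55%), beside 51.5% and 37.5% of all protein-coding genes. The shares of the list are therefore not a result about Polycomb genes alone. These lists were drawn up with earlier results of these data known, and the counts are descriptions. TRIM24, a reader of histone marks and nuclear receptor cofactor, had 37.9 and 8.75 reads at one promoter region (1.67) and 123 and 56.5 at another (1.02). KMT2C, a histone H3 methyltransferase, had 30.8 and 7.82 reads (1.52), and CBX3 34.3 and 10.0 reads (1.43). RBM33, an RNA-binding protein, had 30.1 and 8.31 reads at its promoter (1.38). EZH2 had 57.8 reads after knockdown and 24.7 in the control at its promoter (1.05, FDR 0.000628), and 2 intergenic regions 29.9 and 56.6 kb upstream had 1.03 and 0.90. TRRAP and SMARCD3 were among the 7 members to which no listed region was assigned, and whether accessibility there differed cannot be read from lists of changed regions. KMT2E was counted among these 7 as well, but the 3 increased promoter regions assigned to its neighbour KMT2E-AS1 (104653297 to 104654908) lie beside it, since RefSeq places the antisense gene directly next to KMT2E.

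Of the 10 lists, the HOXA list had the lowest share of genes with any increased region (21.4%, beside 51.5% of all coding genes). Its promoter share, also 21.4%, lay below the 37.5% of all coding genes. It was above those of the neuronal (20%) and developmental (15.8%) lists, but the neighbours SKAP2 and HIBADH were among its 3 genes. Of 11 HOXA genes and 3 neighbours, HOXA5 was the one HOXA gene with a listed region, at its promoter, with 88.1 reads after knockdown and 43.2 in the control (27182596 to 27183647, log2 fold 0.93, FDR 0.000284). HOXA genes set position along the body axis, and several of them are expressed in blood progenitors. The flanking genes SKAP2 (72.1 and 42.3 reads) and HIBADH (82.3 and 49.4 reads) had promoter regions with folds of 0.67 each, below the chromosome's lower quartile. The other 10 HOXA genes and EVX1 had no listed region. A further region lay over the start of HOTTIP, a noncoding RNA at the distal end of the cluster that was not on the list (27239708 to 27240108, 34.3 and 16.7 reads, 0.85).

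Genes of the long arm that are recurrently lost in myeloid disease had increased regions at 10 of 13 members (76.9%, beside 51.5% of all coding genes), 8 at the promoter (61.5%, beside 37.5%). MKLN1, an intracellular scaffold protein, had 15.5 and 2.83 reads in an intron (1.53). SAMD9, a growth-restraining endosomal protein, had 23.5 and 6.06 reads at its promoter (1.36). DOCK4, an exchange factor for Rac GTPases, had 6 regions, all intronic, of which the largest had 31.4 and 9.16 reads (1.41). CUX1, a homeodomain tumour suppressor, had 49.0 and 23.7 reads at its promoter (0.91) and a second region 74.6 kb upstream (0.84). SAMD9L and IRF5 had none assigned, and KMT2E had none under its own symbol, with the KMT2E-AS1 promoter regions beside it.

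Haematopoietic and leukaemia regulators had increased regions at 20 of 32 members (62.5%), 14 at the promoter (43.8%), both near the shares of all coding genes (51.5% and 37.5%). IKZF1, the lymphoid and progenitor factor Ikaros, had 37.6 and 8.13 reads in intron 3 of 3 as annotated (50424317 to 50424717, 1.78) and 21.9 and 8.65 at its promoter (1.0). Its other 4 regions lay 37.6 to 97.8 kb upstream with folds from 0.72 to 1.0. CDK6, a kinase of the G1 phase, had 7 regions with folds from 0.79 to 1.13, and the promoter region over its start had 45 and 20.2 reads (0.98). TFEC, a transcription factor of the MITF family, had 5 regions, the largest intronic with 12.8 and 1.88 reads (1.55). EGFR and 6 of the GIMAP genes were among the members with no region under their own symbol. For GIMAP1, 1 of these 6, RefSeq gives the same start as for the readthrough gene GIMAP1-GIMAP5, and a region over that gene's start had 24.6 and 5.71 reads (150413455 to 150413855, 1.56).

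Sterol, lipid and secretory genes had increased regions at 16 of 20 members (80%, beside 51.5% of all coding genes) and promoter regions at 15 (75%, beside 37.5%). After INSIG1, SEC61G, a subunit of the protein translocation channel, had the largest fold, 54.2 kb upstream (25.1 and 5.40 reads, 1.64), with 42.5 and 17.9 reads at its promoter (1.06). SRI, a calcium-binding protein, had 15.2 and 3.71 reads at one promoter region (1.29) and 74.5 and 33.4 at another (1.04). AGK, an acylglycerol kinase of mitochondria, had 22.9 and 7.06 reads at its promoter (1.24). Cytoskeleton and housekeeping genes had 26 of 34, all 26 at the promoter (76.5%, beside the same 51.5% and 37.5%), with CAPZA2 (74.3 and 25.3 reads at the promoter, 1.33), ACTB, ZYX (86.0 and 31.6 reads, 1.30) and NDUFA4, a respiratory chain subunit whose largest fold was 50.5 kb away (15.8 and 3.92 reads, 1.31).

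Protein synthesis, folding and turnover genes had 19 of 32 (59.4%, near the 51.5% of all coding genes), 18 at the promoter (56.2%, beside 37.5%), and a median log2 fold of 0.95 over their 29 regions, under the 1.05 of the chromosome. HNRNPA2B1 (32.3 and 7.89 reads, 1.61), the ubiquitin ligase RNF216 (34.2 and 8.70 reads, 1.61), LSM8, a subunit of the ring that binds U6 RNA (48.1 and 13.2 reads, 1.59), and CUL1 were the largest.

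Among neuronal and axon guidance genes, an increased region was assigned to 20 of 25 (80%, beside 51.5% of all coding genes) and lay at the promoter in 5 (20%, beside 37.5%), and the median log2 fold of their 50 regions was 1.24. SEMA3D, a secreted guidance cue, had 6 regions, all intergenic and 285 to 703 kb upstream, the nearest with 26.4 and 5.08 reads (1.79). CALN1, a calcium-binding protein, had 20.1 and 3.48 reads in an intron 468 kb from its start (1.75). CACNA2D1, a calcium channel subunit, had 44.8 and 10.9 reads 172 kb upstream (1.69), and CNTNAP2, a neuronal adhesion protein, 12.7 and 1.37 reads in an intron (1.64). With regions limited to 100 kb of a start, 12 of the 25 genes had one, while 533 of the 567 named genes of the chromosome kept one. The 80% of this list therefore rests in part on distant regions, and the share of all coding genes under the same limit was not computed.

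Developmental transcription factors had 12 of 19 members with an increased region (63.2%, beside 51.5% of all coding genes) and 3 with one at the promoter (15.8%, beside 37.5%). PHTF2 and SP4, described above, were 2 of those 3. Whether PHTF2 acts as a developmental transcription factor was not examined here, and its largest fold was at a second promoter region (27.0 and 6.20 reads, 1.63). MEOX2, a mesodermal homeobox gene, had 4 intergenic regions, of which the one 199 kb upstream had 13.0 and 1.32 reads (1.67). TWIST1, a factor of mesenchymal identity, had 1 region 65.5 kb from its start (17.3 and 3.96 reads, 1.42). DLX5, DLX6, EN2, MNX1 and TBX20 had none. Stress, signalling and cytokine genes had 18 of 36 (50%) and 11 at the promoter (30.6%), close to the shares of all coding genes. Their largest fold was in an intron of TNS3, an adhesion protein, 77.8 kb from a start (34.9 and 8.08 reads, 1.70). An exon of the dioxin receptor AHR, 40.3 kb from a start, came next (13.3 and 1.57 reads, 1.63). Intergenic regions assigned to the Wnt receptor FZD1 (35.9 kb away, 12.2 and 2.39 reads, 1.37) and the G protein GNA12 (19.3 kb away, 35.9 and 11 reads, 1.37) followed.

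**Figure D5:**
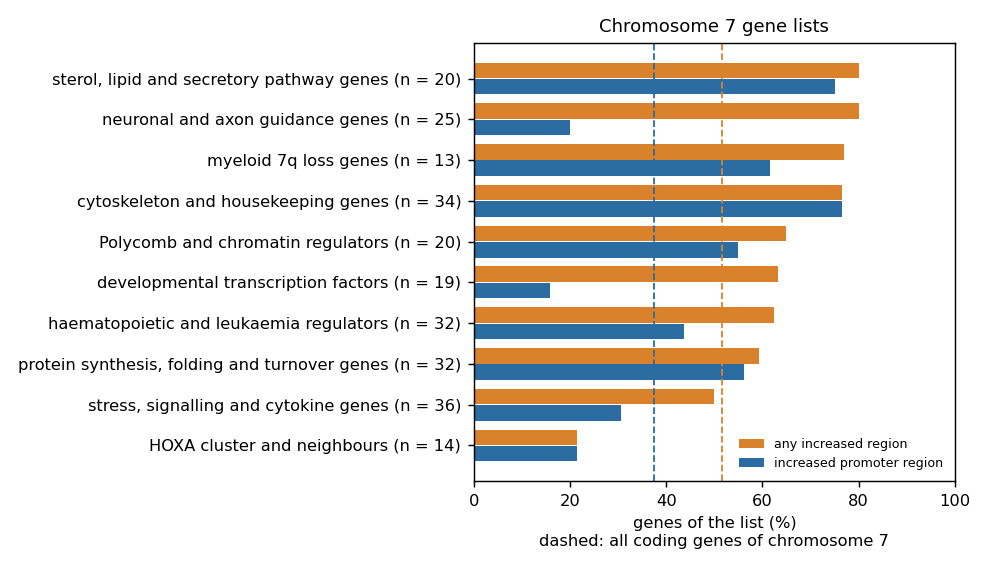
Share of the genes of 10 chromosome 7 lists that had any increased region (orange) or an increased promoter (blue), with the shares over all 938 protein-coding genes of the chromosome dashed (51.5% and 37.5%). Neuronal genes and developmental factors have a high orange and a low blue bar, and the HOXA list is lowest for any region (21.4%). Of the 20 neuronal genes with any region, 12 had one within 100 kb of a start.

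MicroRNA genes were the nearest start of 25 regions. The mature products of the 5 microRNA genes with more than 1 region are shown, 1 product for each, with the seed, bases 2 to 8, in capitals (RefSeq, GRCh38.p14).
hsa-miR-148a-3p: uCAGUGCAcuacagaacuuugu
hsa-miR-183-5p: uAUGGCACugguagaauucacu
hsa-miR-593-5p: aGGCACCAgccaggcauugcucagc
hsa-miR-653-5p: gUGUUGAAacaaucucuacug
hsa-miR-4648: uGUGGGACugcaaaugggag

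Their seeds differ, as did all 14 seeds of the mature sequences matched. MIR148A had a region 1.09 kb upstream with 14.5 reads after knockdown and 4.14 in the control (log2 fold 1.15), and 2 others 17.3 and 93.8 kb upstream (1.38 and 0.94). MIR183 had 2 regions, 5.12 and 50.6 kb upstream, the latter with 56.3 and 25.2 reads (1.0). MIR593 lies within SND1 and was the nearest start of 6 regions, of which 4 formed a stretch of 16.0 kb downstream (127761707 to 127777741, 0.88 to 1.24). MIR653 had 3 regions, 39.7 to 72.2 kb from its start, and the one with the largest fold had 11.9 and 1.45 reads (1.56). MIR4648 had 2 regions with folds of 0.90 and 0.91. No RNA level was analysed here.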

How the data were processed

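ATAC-seq was done in 7 libraries, 4 control and 3 PHF19 knockdown. Per the file headers, the authors deposited for each listed region the log2 mean normalised reads of all libraries and of each group, a log2 fold, a p-value and an FDR, and an annotation with the distance in bp (deposited width and distance are other units, in bp). The submitters' processing notes name Bowtie2 2.4.1, Picard 2.2.4, deepTools 1.5.12, MACS2 2.2.6 and build hg38, with no role. The differential tool, the normalisation and any shift of reads for the transposase were not stated in the labels or file headers. The deposited gene starts are not those of GRCh38, so coordinates are read as hg19.

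Group columns were assigned by their headers and by the weight of the knockdown column in the overall mean (median 0.429, or 3 of 7). The number of tested regions is the one that makes most FDR ranks whole (61.9% of values within 0.01, against 2.62% for the next best number). Regions of both lists on chromosome 7 were pooled. Levels were back-transformed from log2. Shares have exact Clopper-Pearson 95% intervals, and the chromosome 7 median fold has a 95% binomial order-statistic interval. The analysis was tested on simulated data and run with pandas 2.3.3 under Python 3.11.15; intervals came from scipy 1.17.1, arrays from numpy 2.4.6 and plots from matplotlib 3.10.9. Gene identifiers of 1030 of the 1045 regions matched RefSeq.

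The members, the gene lists and the settings were chosen with earlier results of these data known. Named genes are the 10 largest increases, the 5 largest at promoters, the 5 highest means, the decreased regions (1 of the 3 is not reported here), the genes with the most regions (ties kept), the 4 largest of each list, and EZH2, IKZF1, CDK6, CUX1, HOXA5 and ETV1. Added after seeing values were the smallest FDRs, the members at the threshold, HOTTIP, KMT2E-AS1, GIMAP1-GIMAP5, the rows of neighbouring genes, the ZNF group, microRNAs and genes without a region.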

Additional observations from a re-analysis of the deposited data

How the results depend on the processing

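No paired analysis was possible because the deposited tables hold group means and no value per library; for the same reason no replicate was left out and every value is without an SD. The chromosome 7 share of listed regions, 11.9%, was 16.0% where the log2 fold was 1 or more in size and 14.6% at an FDR of at most 0.01, and stayed within its interval at a mean of at least 10 reads (11.3%) and with regions joined within 10 kb (11.4%). The promoter share of all 1045 regions, 44.9%, was 40.2% where the log2 fold was 1 or more in size, 56.2% at an FDR of at most 0.01 and 61.6% at a mean of at least 10 reads. The median log2 fold of increased regions, 1.05, was 1.47 as the difference of the group means (1.28 on the other chromosomes), 1.01 at a mean of at least 10 reads (0.91 elsewhere), 1.01 at promoters and 1.08 at other regions. The median overall mean of 15.2 reads was 31.7 at promoters and 9.77 at other regions. The densest interval held 8.45% of increased regions, and 4.51% with 5 Mb and 15.5% with 20 Mb intervals. Of the 567 nearest genes, 533 had a region within 100 kb and 368 had one with a log2 fold of at least 1. For the 10 gene lists, 16 of 20 such counts stayed within 1.5 times; the exceptions were the neuronal list within 100 kb (12 of 20 genes) and, at a log2 fold of at least 1, the HOXA list (0 of 3), the protein synthesis list (10 of 19) and the cytoskeleton list (16 of 26). The difference of group means was farther from 0 than the deposited fold in all 1045 regions and had the same sign in each.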
